A study of Rattus norvegicus with 24 samples.

Results

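The collagen genes of the rat were followed here in normal colon and colonic tumours, with and without earlier dextran sodium sulfate (DSS), an irritant of the colonic lining. Collagens were taken as the gene probes whose name on the array, or whose current symbol by accession, had the form of a collagen chain (Col, type number, a, chain number). This gave 29 genes on 42 probes out of 15218 named genes on the array, and 12 of the 29 had more than 1 probe. The 29 genes comprised 8 fibrillar chains (types I, II, III, V and XI), 3 basement membrane chains of type IV and 18 chains of other types. Col4a1, the usual partner of Col4a2, was not analysed here.

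Collagens are triple helices of 3 chains that are secreted by fibroblasts, smooth muscle cells, endothelium and epithelium and form the scaffold of a tissue. Fibrillar collagens build the fibres of the submucosa and of the stroma around crypts and tumour glands, type IV collagen forms the sheet on which epithelium and vessels rest, and types XV and XVIII lie at basement membranes and carry sugar chains. New chains are hydroxylated, folded and trimmed, cross-linked outside the cell, bound by integrins such as Itga1 and Itga2, and cleaved by matrix metalloproteases.

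All animals were male (ACIxF344)F1-Pirc rats, genotype Apc-Pirc/+, whose germline holds 1 defective allele of Apc, a brake on intestinal tumours, and which were at 97 days of age. Of the 10 rats, 5 (numbers 1, 5, 6, 7 and 9) drank 4% DSS of molecular weight 500000 in 2 courses (days 40 to 47 and days 54 to 61), and 5 (numbers 2, 3, 4, 8 and 10) were untreated. Normal distal colon and tumour of each rat gave 4 groups of 5 samples on 24 arrays, since 4 samples had a second array that was averaged with the first. Each sample was labelled with Cy3 and hybridized against a reference in Cy5, pooled normal colon RNA of rats with wild-type Apc, with no dye swap. Levels below are log2 of sample over pool, so 0 means as much as in the pool. Values are listed in the order of the rat numbers just given, changes are differences of log2 levels with the standard error of the model, and called means an adjusted p under 0.05 over all 26843 features tested.

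The arrays came from 6 slides, of which 4 shared an identifier prefix and held rats 1 to 6 (slide set 1) and 2 held rats 7 to 10 (slide set 2, scanned on a day of its own). Each group had 3 rats in set 1 and 2 in set 2. The share of probes above background in Cy3 was 48.4% to 71.0% for 21 arrays. It was 95.2%, 89.9% and 87.1% on the first array of the normal colon of rat 2, on the normal colon of rat 4 and on the tumour of rat 9. Of 11 colonic epithelium markers, 10 could be tested, and each was above background on every array of normal colon. Because the samples were pieces of whole tissue, a lower level can come from fewer cells of a type or from less RNA per cell, which cannot be told apart.

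Of the 29 collagens, 25 were bright enough to test (5 or more of the 24 arrays had Cy3 well above background). The other 4 were Col11a1, Col14a1, Col8a2 and Col17a1, a transmembrane collagen of squamous epithelium. Col17a1 was above background on 2 arrays, both among the 3 with raised signal, and its levels on single arrays ran from -0.12 to 0.12. Col11a1 and the brighter probe of Col14a1 were above background on 4 arrays each and Col8a2 on 3. No collagen probe was saturated in either dye.

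The sequences of 9 probes are shown, each of which measured a main call or is a dimmer probe of a called gene. The calls of Col1a1, Col1a2, Col5a2, Col22a1, Col4a4 and Col9a3 were measured on other probes, not printed here. All are 60 bases, 5′ to 3′ as on the array, and capitals mark runs of at least 13 bases that 2 collagen probes share.
Col1a1, A_44_P350521: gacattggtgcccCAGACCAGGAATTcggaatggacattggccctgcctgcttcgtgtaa
Col1a1, A_44_P419137: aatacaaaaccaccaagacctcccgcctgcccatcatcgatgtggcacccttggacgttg
Col3a1, A_44_P146518: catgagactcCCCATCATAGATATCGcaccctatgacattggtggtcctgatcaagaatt
Col5a2, A_44_P392849: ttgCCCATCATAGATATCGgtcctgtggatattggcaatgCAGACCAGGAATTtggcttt
Col18a1, A_44_P1004323: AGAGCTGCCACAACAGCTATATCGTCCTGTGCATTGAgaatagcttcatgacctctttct
Col18a1, A_44_P1004324: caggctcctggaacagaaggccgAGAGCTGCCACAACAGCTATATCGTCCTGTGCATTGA
Col15a1, A_44_P208699: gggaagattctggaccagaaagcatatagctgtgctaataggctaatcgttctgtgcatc
Col4a2, A_42_P633958: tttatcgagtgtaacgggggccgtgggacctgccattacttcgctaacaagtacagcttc
Col7a1, A_44_P295563: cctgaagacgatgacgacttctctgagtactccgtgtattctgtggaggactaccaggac
Among the 861 pairs of collagen probes, 4 shared such a run. The Col18a1 probes overlap by 37 bases, so they read largely the same stretch and are not separate evidence. The Col3a1 probe and the dimmer Col5a2 probe, A_44_P392849, share 16 bases, and that Col5a2 probe shares 13 with Col1a1 probe A_44_P350521. The Col5a2 call was measured on the other Col5a2 probe, which shares no such run. Probes of Col2a1 and Col4a5 share 16.

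The first comparison was tumour against normal colon in untreated rats. The fibrillar chains Col1a1, Col1a2, Col3a1 and Col5a2 (1 of 3 type V chains) were higher in tumours by 2.6- to 2.8-fold, together with Col18a1, Col22a1 and Col15a1, and 1 basement membrane chain was higher while another was lower. Of the 25 collagens tested, 9 were called (8 higher, 1 lower), which is 36.0%, against 18.0% of all features. In the higher direction it was 32.0% against 8.54%, and the single lower call compares with 9.41% of all features lower. The median change was 0.14 over the 25 collagens and close to 0 over all features (-0.002). The change was positive, called or not, for 22 of 25 collagens and for 13302 of 26843 features. The collagen median depended on processing: 0.29 with no background correction, 0.56 with the deposited processed signals and 0.10 with median centring. The medians of all features were then -0.004, -0.04 and -0.05.

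**Figure D1:**
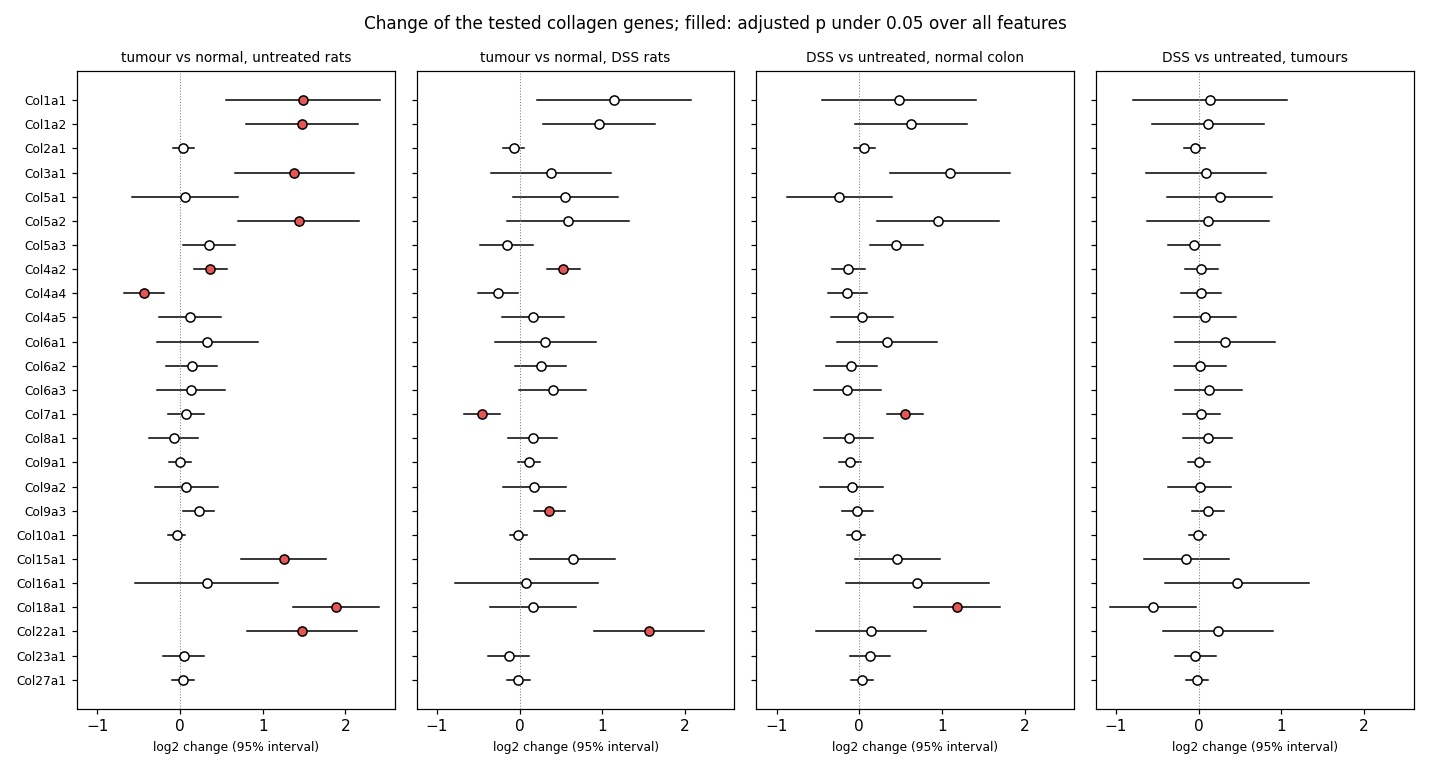
Log2 change with its 95% interval for the 25 tested collagens in 4 comparisons; the vertical order is fibrillar, type IV and other chains, and filled points have an adjusted p under 0.05. Filled points are most frequent in tumour against normal colon of untreated rats (9) and absent for DSS against untreated tumours.

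Among 7 fibrillar chains tested, 4 rose (Col1a1, Col1a2, Col3a1, Col5a2) and 3 did not pass (Col2a1, Col5a1, Col5a3), with a median change of 1.38. Col1a1 and Col1a2 encode the chains of type I collagen, the main collagen of fibrous tissue. Col1a1 stood at -3.30, -4.02, -3.51, -3.09 and -2.32 in untreated normal colon. Its tumour levels were -2.02, -2.64, -1.97, -1.61 and -0.54. Every tumour was above the normal colon of its own rat, by 1.28 to 1.78, although the groups overlapped at rat 10 normal and rat 3 tumour, and all samples were below the pool. The change was 1.49 ± 0.44 (2.81-fold, adjusted p = 0.0248). Col1a2 stood at -2.71, -3.65, -2.74, -3.44 and -2.94 in normal colon and at -1.61, -2.17, -1.96, -1.49 and -0.89 in tumours. The groups did not overlap, with a change of 1.47 ± 0.32 (2.78-fold, adjusted p = 0.00376).

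Col3a1, the chain of type III collagen, which is rich in loose and healing stroma, stood at -2.77, -3.29, -3.00, -2.66 and -2.41 in normal colon and at -1.42, -2.18, -2.17, -1.11 and -0.32 in tumours. The groups did not overlap (change 1.38 ± 0.35, 2.61-fold, adjusted p = 0.00899). Col5a2, a chain of type V collagen, which sits inside type I fibres, stood at -2.13, -3.12, -1.75, -3.36 and -1.43 in normal colon and at -0.87, -1.65, -0.95, -0.99 and -0.17 in tumours. Each tumour was above its own normal colon, and the groups overlapped only where rat 3 tumour lay below rat 10 normal. The change was 1.43 ± 0.35 (2.70-fold, adjusted p = 0.00805). Its partner Col5a1 showed no such difference (0.06 ± 0.30, 95% interval -0.58 to 0.70, adjusted p = 0.943). Col5a3 differed by 0.35 ± 0.15 (adjusted p = 0.127), and Col2a1, a cartilage chain, was above background on 9 of 24 arrays and differed by 0.04 ± 0.06.

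**Figure D2:**
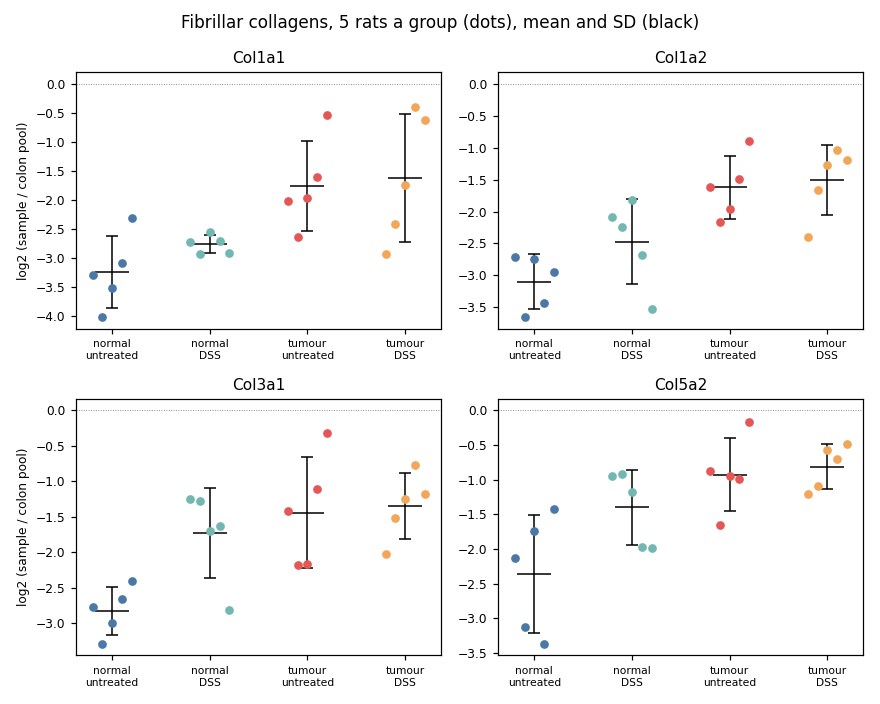
Log2 of sample over pool for Col1a1, Col1a2, Col3a1 and Col5a2, 1 dot per rat with the mean and SD of 5 rats in black. Tumours of both treatments lie above untreated normal colon in group mean, and for Col3a1 the mean of normal colon of DSS rats (-1.73) lies near the tumours (-1.44 and -1.35).

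The size of the type I change depended on the probe. For Col1a1, the brightest probe stood for the gene and gave 1.49. The other Col1a1 probes, A_44_P350521 and A_44_P419137, gave 0.35 ± 0.21 (adjusted p = 0.290) and 0.16 ± 0.19 (adjusted p = 0.652). Averaging the 3 probes gave 0.67 (adjusted p = 0.0250). For Col1a2, the second probe, A_44_P458851, gave 0.37 ± 0.35 (adjusted p = 0.552), and the mean of both probes 0.92 (adjusted p = 0.0427). The dimmer probes differed from the brightest mainly in normal colon: mean levels in untreated normal colon were -3.25 on the brightest Col1a1 probe and -1.11 and -1.10 on the other probes. In tumours of untreated rats they were -1.75, -0.75 and -0.93. For Col5a2 the probes gave similar changes, 1.43 and 1.29 (adjusted p = 0.0189 for A_44_P392849).

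**Figure D3:**
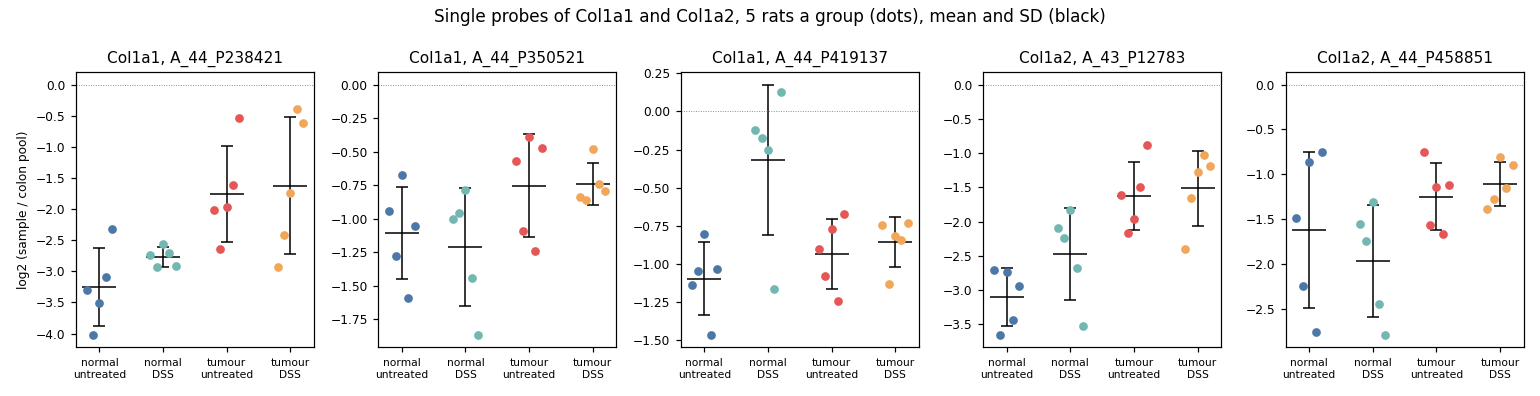
Log2 of sample over pool on each of 3 Col1a1 and 2 Col1a2 probes, 1 dot per rat with mean and SD of 5 rats in black; the vertical scale differs between panels. On the brightest probes (A_44_P238421 and A_43_P12783) the means of untreated tumours lie 1.49 and 1.47 above untreated normal colon, with overlap on the Col1a1 probe only, and on the other 3 probes the groups overlap more widely.

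Within slide set 1 and set 2 the changes were 1.40 and 1.63 for Col1a1, 1.12 and 2.0 for Col1a2, 1.09 and 1.82 for Col3a1, and 1.18 and 1.82 for Col5a2. Col1a1 lost its call without rat 4 (1.48, adjusted p = 0.0751) or without rat 8 (1.50, adjusted p = 0.0847). With median centring of each array in place of loess, none of the 4 was called: Col1a1 1.29 (adjusted p = 0.141), Col1a2 1.31 (0.269), Col3a1 1.20 (0.202) and Col5a2 1.43 (0.102). Of all features, 3.42% were called with median centring, against 18.0% with loess.

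Of the 3 basement membrane chains, Col4a2 rose, Col4a4 fell and Col4a5 did not pass. Col4a2, a chain of the type IV collagen found under all epithelia and vessels, stood at -0.03, -0.29, 0.07, -0.25 and -0.01 in normal colon and at 0.03, 0.21, 0.33, 0.34 and 0.40 in tumours. It was higher in the tumour of each of the 5 rats, but by little, with a change of 0.37 ± 0.10 (1.29-fold, adjusted p = 0.0126). Col4a4, a chain of a type IV network restricted to certain tissues such as the glomerulus, stood at -0.07, -0.20, -0.13, 0.18 and 0.01 in normal colon and at -0.07, -0.63, -0.55, -0.68 and -0.44 in tumours. Rat 2 was level and the other 4 rats were lower in the tumour. Col4a4 fell by 0.44 on the log2 scale (SE 0.11, 1.35-fold, adjusted p = 0.0119). Without rat 8, neither chain was called: Col4a2 0.31 (adjusted p = 0.0872) and Col4a4 -0.33 (adjusted p = 0.103). Col4a2 also lost its call without rat 3 (0.33, adjusted p = 0.0522) and with median centring (0.31, adjusted p = 0.309). Within slide sets 1 and 2, Col4a2 differed by 0.28 and 0.50 and Col4a4 by -0.28 and -0.66, with adjusted p of 0.0508 to 0.256. Col4a5 differed by 0.12 ± 0.18 (adjusted p = 0.751).

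Of 15 other chains tested, 3 rose and 12 did not pass. Col18a1, a basement membrane collagen whose end piece is released as endostatin, had the smallest p of all collagens. It stood at -0.71, -1.53, -0.66, -1.34 and -0.29 in untreated normal colon and at 0.56, 0.56, 1.28, 1.11 and 1.41 in the tumours. Every normal colon was below the pool and every tumour above it, with a change of 1.89 ± 0.25 (3.71-fold, adjusted p = 6.43e-05). The overlapping second probe gave 1.50 ± 0.22 (adjusted p = 0.000148). Col15a1, the closest relative of Col18a1, stood at -0.74, -0.58, -0.02, -0.79 and -0.07 in normal colon and at 0.22, 0.51, 0.68, 1.17 and 1.51 in tumours. Again the groups did not overlap (1.25 ± 0.24, 2.39-fold, adjusted p = 0.00160).

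Col22a1, a collagen known from tissue junctions in muscle, stood at -0.03, -0.09, 0.00, 0.02 and 0.00 in normal colon and at 0.30, 1.18, 1.37, 2.70 and 1.73 in tumours. The groups did not overlap, and rat 2 had the lowest tumour (change 1.48 ± 0.32, adjusted p = 0.00333). Col22a1 was above background on 3 of 7 arrays of untreated normal colon and on all 5 tumour arrays, so its values near 0 in normal colon do not give a level and no fold is given. Within slide sets 1 and 2 the changes were 1.77 and 2.08 for Col18a1, 0.91 and 1.77 for Col15a1, and 0.99 and 2.20 for Col22a1. Col15a1 and Col18a1 kept their call under all 20 alternatives tried, while Col22a1 was not called within set 2 (adjusted p = 0.0532). The type VI chains, which form beaded filaments around cells, differed by 0.33 (Col6a1), 0.14 (Col6a2) and 0.13 (Col6a3), with adjusted p of 0.527 to 0.743. The brighter Col9a3 probe differed by 0.23 ± 0.09 (adjusted p = 0.0949), while its second probe, A_44_P787524, gave 0.51 ± 0.12 (adjusted p = 0.00561) and the mean of both 0.37 (adjusted p = 0.00648). The remaining chains differed by -0.08 to 0.32 on their brightest probes.

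**Figure D4:**
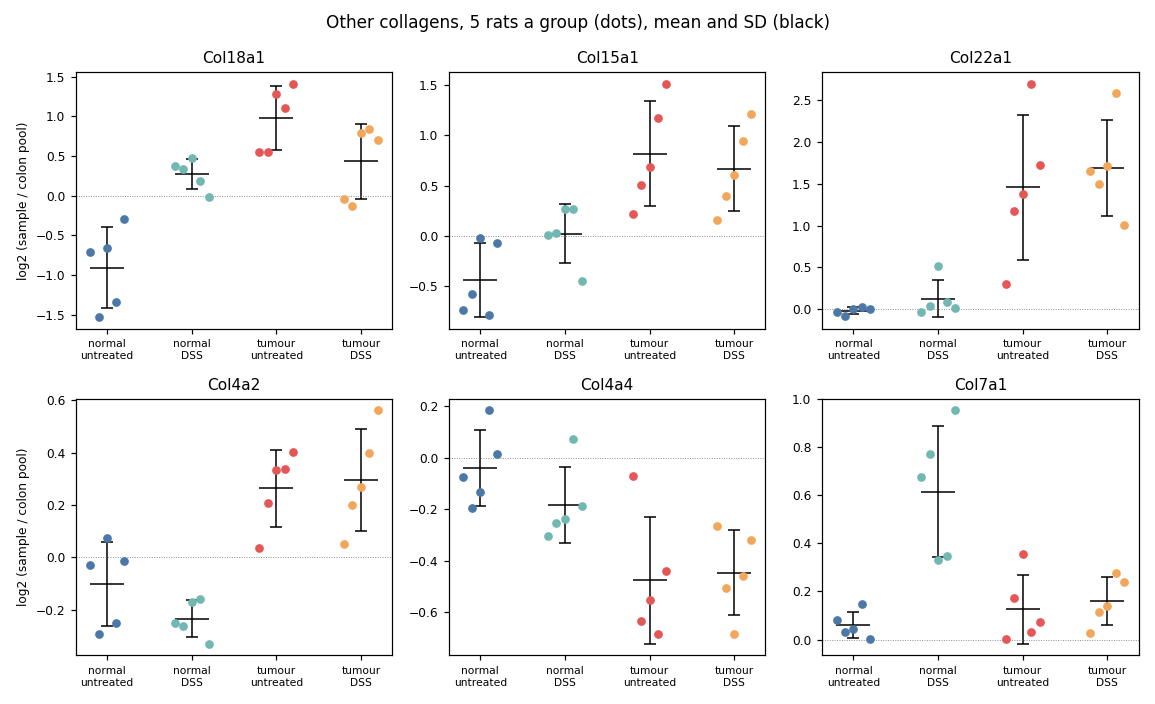
Log2 of sample over pool for Col18a1, Col15a1, Col22a1, Col4a2, Col4a4 and Col7a1, 1 dot per rat with mean and SD of 5 rats in black; the vertical scale differs between panels. Col18a1 has its lowest mean (-0.91) in untreated normal colon, Col22a1 is high in both tumour groups (means 1.46 and 1.69), and Col7a1 has its highest mean (0.62) in normal colon of DSS rats.

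Of 30 genes of collagen synthesis, folding and cross-linking tested, 1 was higher and 4 were lower in untreated tumours, with a median change of 0.03. That is 16.7% called, near the 18.0% of all features. The share was 40.0% for the collagen receptors and 36.4% for the genes of collagen breakdown. The latter list also holds Timp genes, which encode inhibitors of metalloproteases. Sparc, a collagen-binding matrix protein, was the higher one (1.04 ± 0.33, adjusted p = 0.0321). Mia2, which helps to load collagen for export (-0.58 ± 0.14), and Ppib, a folding enzyme of the collagen-modifying complex (-0.30 ± 0.07), were among those lower (adjusted p = 0.00667 and 0.00858). The collagen chaperone Serpinh1 differed by 0.48 ± 0.29 and the cross-linking enzyme Lox by 0.27 ± 0.46, neither called. Of 5 collagen receptors tested, 2 were higher, the integrin chains Itga1 (1.57 ± 0.30, adjusted p = 0.00144) and Itga2 (1.21 ± 0.24, adjusted p = 0.00202). Of 11 genes of collagen breakdown, 4 were higher and none lower. These were Mmp7 (5.56 ± 0.33, adjusted p = 1.79e-08), Mmp14, an activator of other proteases at the cell surface (1.36 ± 0.30, adjusted p = 0.00356), Mmp9 (0.64 ± 0.14, adjusted p = 0.00453) and Mmp8. In untreated normal colon, Mmp8 was above background on no array, and Mmp9 and Lox on 2 of 7 arrays each. The size of the change of these 3 genes is therefore poorly known.

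Markers of other cell types moved between the same groups, where 8.54% of all features were higher and 9.41% lower. Among 10 fibroblast markers, Dcn and Fn1 were higher in untreated tumours and none lower, and the mean level of the list ran from -1.60 to -0.61 in normal colon and from -0.95 to -0.08 in tumours. Of 3 adipocyte markers tested, Adipoq and Fabp4 were higher (list mean -1.43 to -0.05 in normal colon, -0.20 to 0.65 in tumours). Of 10 endothelial markers, Eng and Flt1 were higher (list mean -0.49 to -0.08 and -0.28 to 0.06). Flt1 was above background on 2 of 7 arrays of untreated normal colon. Of 7 smooth muscle markers, Myl9 was higher and Des lower (list mean -2.86 to -1.68 and -2.60 to -1.23). Of 6 leukocyte markers, Cd68 and Lyz2 were higher (list mean -0.49 to -0.15 and 0.19 to 0.52). Of 10 colonic epithelium markers, 3 were lower in untreated tumours (Krt20, Cdx2 and Slc26a3) and none higher, with list means of -0.36 to 0.11 in normal colon and -1.76 to -0.25 in tumours. None of 4 glial and none of 2 cartilage and bone markers passed in limma in any comparison, with 1 and 0 at an unadjusted p under 0.05 in this one. Their part in the collagen changes was not tested.

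The second comparison was tumour against normal colon in DSS rats. Here Col22a1, Col4a2 and Col9a3 were higher and Col7a1 was lower in tumours, and no fibrillar chain passed. That is 4 of 25 collagens (16.0%), against 7.53% of all features (3.71% higher, 3.82% lower), and the median collagen change was 0.18 against 0.02 over all features. Col22a1 stood at -0.03, 0.04, 0.51, 0.09 and 0.02 in normal colon and at 1.65, 1.50, 1.71, 2.58 and 1.0 in tumours. The groups did not overlap (1.56 ± 0.32, adjusted p = 0.00453). Col4a2 stood at -0.25, -0.26, -0.17, -0.16 and -0.33 in normal colon and at 0.05, 0.20, 0.27, 0.40 and 0.56 in tumours, again without overlap (0.53 ± 0.10, 1.44-fold, adjusted p = 0.00201).

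Col9a3, a chain of a cartilage collagen that binds to fibril surfaces, stood at -0.12, -0.10, 0.00, -0.33 and -0.28 in normal colon and at 0.14, 0.39, 0.35, 0.11 and -0.02 in tumours. All 5 rats were higher in the tumour (0.36 ± 0.09, adjusted p = 0.0182), and the second probe gave 0.48 ± 0.12 (adjusted p = 0.0183). Col9a3 was above background on none of 6 arrays of normal colon of DSS rats and on all 6 tumour arrays, so the level of this normal colon is only bounded. On the Cy3 channel alone, which is open to dye bias without swapped dyes and is not the scale of the ratio, tumours (mean log2 signal 7.32) were at least 1.50-fold above the lowest signals above background (6.73). Col9a3 lost its call without rat 1 (adjusted p = 0.0526), without rat 5 (0.0795), without rat 7 (0.0572) and with median centring (0.158). Within slide set 2 no collagen was called, with changes of 1.74 for Col22a1, 0.72 for Col4a2, 0.35 for Col9a3 and -0.39 for Col7a1. Of all features, 0.414% were called within set 2. Within set 1, Col22a1 gave 1.45 and Col4a2 gave 0.40, the latter not called (adjusted p = 0.0516).

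In DSS rats the values of Col1a1, Col1a2, Col3a1 and Col5a2 are given by slide set as well. Col1a1 stood at -2.73, -2.93, -2.56, -2.71 and -2.92 in normal colon and at -2.93, -2.42, -1.74, -0.40 and -0.62 in tumours. The tumours of rats 7 and 9, the rats on slide set 2, were by far the highest, and the tumour of rat 1 was below its normal colon. The change was 1.15 ± 0.44 (adjusted p = 0.140), and it was 0.38 ± 0.29 within set 1 and 2.30 ± 0.39 within set 2. The other Col1a1 probes gave -0.54 ± 0.19 (A_44_P419137, adjusted p = 0.0958) and 0.47 ± 0.21 (A_44_P350521, adjusted p = 0.217), so 1 of 3 probes had the opposite sign. Col1a2 stood at -2.09, -2.24, -1.82, -2.68 and -3.53 in normal colon and at -2.40, -1.66, -1.28, -1.03 and -1.19 in tumours (0.96 ± 0.32, adjusted p = 0.0823). Col3a1 differed by 0.38 ± 0.35 and Col5a2 by 0.59 ± 0.35 over all rats, by -0.19 and 0.06 within set 1, and by 1.25 and 1.38 within set 2. Whether the sets differ was not tested, and slide set, scan day and rats cannot be told apart. Col1a1 was called when slide set, scan day or rat was a block (adjusted p = 0.0266 to 0.0485) and with median centring (1.82, adjusted p = 0.0384). Col1a2 was called with rat as a random block (adjusted p = 0.0366) and without rat 1 (1.28, adjusted p = 0.0374). With rat as a block, 5 or 6 collagens were called in place of 4, while the share of all features called rose from 7.53% to 12.3% or 12.8%.

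In the same comparison, none of 30 synthesis genes and none of 5 receptors passed in limma, with 8 and 2 at an unadjusted p under 0.05 (19.6% of all features). Of 11 breakdown genes 2 were higher, Mmp7 (1.95 ± 0.33, adjusted p = 0.00105) and Timp3, an inhibitor of metalloproteases held in the matrix (0.57 ± 0.14, adjusted p = 0.0124). That is 18.2% of a list that holds both proteases and their inhibitors, against 3.71% of all features higher. Among fibroblast markers 0 of 10 passed, with 3 at an unadjusted p under 0.05. Of 6 leukocyte markers 2 were higher, and of 7 smooth muscle markers 1 was higher, with none lower in either list. Of 10 colonic epithelium markers 2 were lower and none higher, where 3.82% of all features were lower. None of 10 endothelial and none of 3 adipocyte markers passed. The part of these cells in the collagen changes was not tested.

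The third comparison was normal colon of DSS rats against normal colon of untreated rats, 36 days after the last DSS. Col18a1 and Col7a1 were higher after DSS, and no collagen was lower. These 2 of 25 (8.0%) compare with 7.19% of all features called (3.87% higher, 3.32% lower), which is near the background. Col18a1 stood at 0.38, 0.34, 0.47, 0.19 and -0.01 in normal colon of DSS rats, against -1.53 to -0.29 in untreated rats. The groups did not overlap, and the change was 1.18 ± 0.25 (2.27-fold, adjusted p = 0.00661). The change was 1.36 within slide set 1 (adjusted p = 0.0154) and 0.91 within set 2 (adjusted p = 0.351). The overlapping second probe gave 0.76 ± 0.22 (adjusted p = 0.0442). With median centring the change was 1.11 and was not called (adjusted p = 0.258).

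Col7a1, the collagen of the anchoring fibrils that fix stratified epithelium to its base, stood at 0.68, 0.77, 0.33, 0.35 and 0.95 in normal colon of DSS rats. In untreated rats it stood at 0.08, 0.03, 0.04, 0.15 and 0.00. The groups did not overlap (0.55 ± 0.10, adjusted p = 0.00280). Col7a1 was above background on all 6 arrays of DSS rats and on 2 of 7 of untreated rats, both among the arrays with raised signal, so no fold is given. In tumours, where 0 of 5 arrays of untreated rats and 3 of 6 of DSS rats were above background, it stood at 0.00, 0.17, 0.36, 0.03 and 0.07 without DSS and at 0.03, 0.11, 0.14, 0.28 and 0.24 with DSS. Tumours of DSS rats therefore lay below their normal colon in 5 of 5 rats, by 0.07 to 0.71. Col7a1 fell by 0.46 on the log2 scale (SE 0.10, adjusted p = 0.0103), which was not called without rat 1 (-0.41, adjusted p = 0.0688), without rat 5 (-0.41, adjusted p = 0.0713) or with median centring (-0.46, adjusted p = 0.0513). Within slide sets 1 and 2 the DSS change in normal colon was 0.54 and 0.57 (adjusted p = 0.0158 and 0.340).

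Squamous epithelium markers moved with Col7a1. Of 12 listed, 10 passed the filter on dim probes, and these 10 were higher in normal colon of DSS rats than of untreated rats, the keratins Krt5 and Krt14 among them, and lower in tumours than in normal colon of DSS rats. Of all features, 3.87% and 3.82% were called in these directions. Tp63, a regulator of this epithelium, was above background on 2 of 7 arrays of untreated normal colon and all 6 of DSS rats, so it passed the filter only through the group where it was high. Their mean level was 3.17, 3.71, 3.15, 3.45 and 5.04 in normal colon of DSS rats. It was -0.01, -0.06, 0.14, 2.16 and 0.10 in untreated normal colon, where rat 8 stood apart, and -0.07 to 0.29 in tumours. Without rat 8 the Col7a1 change was 0.58 (adjusted p = 0.00718), and the Col18a1 change 1.07 (adjusted p = 0.0261). Tp63 was above background on 0 of 5 and 0 of 6 tumour arrays. Col17a1, another collagen of squamous epithelium on the array, was above background on none of the 6 arrays of normal colon of DSS rats. The part of these cells in the Col7a1 and Col18a1 levels was not tested.

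Among fibrillar chains, none passed for DSS in normal colon, with 3 of 7 at an unadjusted p under 0.05 in limma, against 20.9% of all features. Col3a1 stood at -1.24, -1.27, -1.70, -1.63 and -2.81 in normal colon of DSS rats, where rat 9 was at the untreated level and the other 4 were above all untreated rats. The change was 1.09 ± 0.35 (2.13-fold, adjusted p = 0.0633). It was called without rat 9 (1.36, adjusted p = 0.0233), without rat 10 (1.20, adjusted p = 0.0287), within slide set 1 (1.61, adjusted p = 0.00303) and with the slide set as a block (adjusted p = 0.0353), and was 0.32 within set 2. Col3a1 was also called with scan day as a block, with slide as a random block, with no background correction, with processed signals and with array weights. Col5a2 stood at -0.95, -0.91, -1.18, -1.97 and -1.99 (0.96 ± 0.35, adjusted p = 0.114) and was called within set 1 (1.32, adjusted p = 0.0271), without rat 10 (1.19), with no background correction (1.38), with the deposited processed signals (1.88) and with array weights (1.24). Col5a3 differed by 0.45 ± 0.15 (adjusted p = 0.0843) and was called with no background correction, with the deposited processed signals, with array weights and without rat 9. Of the type I chains, Col1a2 differed by 0.63 ± 0.32 and Col1a1 by 0.48 ± 0.44 (adjusted p = 0.285 and 0.594). A dimmer Col1a1 probe, A_44_P419137, gave 0.78 ± 0.19 (adjusted p = 0.0159), while A_44_P350521 gave -0.10 ± 0.21 (adjusted p = 0.834). The 3 type IV chains differed by -0.14 to 0.03, and Col15a1 by 0.46 ± 0.24 (adjusted p = 0.301).

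Of 30 synthesis genes, P3h2, a prolyl 3-hydroxylase (0.61 ± 0.16, adjusted p = 0.0265), was higher and Mia2 was lower (-0.53 ± 0.14, adjusted p = 0.0251) in normal colon after DSS. That is 6.67%, near the 7.19% of all features called. The share of breakdown genes, inhibitors among them, was 18.2% with both directions counted. Of 11 breakdown genes, Mmp7 was higher (3.69 ± 0.33, adjusted p = 3.68e-06) and Timp2, a metalloprotease inhibitor, was lower (-0.56 ± 0.16, adjusted p = 0.0421). Of 5 receptors none passed in limma, with 1 at an unadjusted p under 0.05. Fibroblast markers Dcn and Fn1 were higher, 2 of 10, and the list mean ran from -1.27 to -0.64 in DSS rats. Leukocyte markers Lyz2 and Cd68 were higher, 2 of 6, with list means of -0.03 to 0.32 in DSS rats and -0.49 to -0.15 in untreated rats, which do not overlap. The median change was only 0.003 over the leukocyte markers, with 3 of 6 positive and a range of -0.29 to 2.29. Over the fibroblast markers it was 0.08, with 6 of 10 positive and a range of -0.32 to 1.67. The typical marker of either list thus moved little. Their part in the collagen levels was not tested.

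The fourth comparison was tumours of DSS rats against tumours of untreated rats. No collagen was called by limma (0 of 25, against 0% of all features). At an unadjusted p under 0.05 stood 1 collagen and 1692 features (6.30%). That collagen was Col18a1, at -0.03, -0.13, 0.79, 0.84 and 0.70 in tumours of DSS rats. The tumours of rats 1 and 5 were below the pool and below every untreated tumour, and the groups overlapped for the other rats. Col18a1 differed by -0.55 ± 0.25 (95% interval -1.07 to -0.03, adjusted p = 0.757). For the other chains the differences ran from -0.15 (Col15a1) to 0.46 (Col16a1). The intervals were -0.80 to 1.07 for Col1a1, -0.57 to 0.79 for Col1a2, -0.63 to 0.82 for Col3a1, -0.62 to 0.85 for Col5a2 and -0.17 to 0.23 for Col4a2. A 2-fold higher level in tumours of DSS rats (a log2 change of 1) lies outside the interval for Col1a2 and just inside that for Col1a1.

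The last test asked whether the DSS effect differed between tumours and normal colon. Col18a1 was the only collagen called (1 of 25, against 2.50% of all features, of which 1.66% lower), with an interaction of -1.73 ± 0.35 (adjusted p = 0.0113). Tumour minus normal colon of the same rat was 1.27, 2.09, 1.94, 2.45 and 1.70 in untreated rats. It was -0.41, -0.46, 0.32, 0.65 and 0.71 in DSS rats, so every untreated rat showed a larger difference than any DSS rat. The levels show that the normal colon of DSS rats (mean 0.27 ± 0.19, SD, n = 5) stood 1.18 above that of untreated rats (-0.91 ± 0.51), while their tumours (0.43 ± 0.47) stood 0.55 below untreated tumours (0.98 ± 0.40). The interaction was -1.95 within slide set 1 and -1.40 within set 2 (adjusted p = 0.0490 and 0.276). It was -1.28 and not called with median centring (adjusted p = 0.301). In the same test 8 of 10 squamous markers tested were lower (median -2.93), as were 1 of 6 leukocyte markers (Lyz2) and 1 of 3 adipocyte markers (Adipoq), and their part in the Col18a1 interaction was not tested. For Col7a1 the interaction was -0.52 ± 0.15 (adjusted p = 0.0701), called without rat 6 or rat 7, with scan day as a block, with array weights, with no background correction and with rat or slide as a random block. The fibrillar chains that rose in tumours of untreated rats gave interactions of -1.0 ± 0.49 (Col3a1), -0.84 ± 0.50 (Col5a2), -0.51 ± 0.46 (Col1a2) and -0.35 ± 0.63 (Col1a1), none called (adjusted p = 0.347 to 0.855). With the deposited processed signals Col5a2 was called (-1.77, adjusted p = 0.0448). A difference of their tumour change between untreated and DSS rats was therefore not shown.

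Levels relative to the pool were read on different probes and are not set against each other. Over the 4 groups, means on the brightest probes ran from -3.25 to -1.62 for Col1a1 and from -3.10 to -1.51 for Col1a2. On the dimmer probes they ran from -1.21 to -0.32 for Col1a1 and from -1.97 to -1.11 for Col1a2. Means ran from -2.83 to -1.35 for Col3a1, from -1.81 to -1.26 for Col5a1 and from -0.48 to 0.30 over the type IV chains. The pool was made from wild-type rats of a range of ages, per the labels. Several dim chains stayed near 0 in every group, such as Col10a1 (means -0.10 to -0.04) and Col27a1 (0.01 to 0.05). Col10a1 was above background on 5 arrays and Col27a1 on 6, 3 of them the arrays with raised signal in each case, so these probes carry little information on a difference.

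The size of a change also depended on the signal used. The deposited processed signals replaced both the background correction and the loess step, so the part of each cannot be told apart. With the deposited processed signals in place of the corrected mean signals, Col7a1 differed by 2.76 in normal colon after DSS (adjusted p = 0.00201), Col9a3 by 2.18 in tumours of DSS rats, Col22a1 by 3.14 and Col4a4 by -1.23 in tumours of untreated rats, and Col4a2 by 0.95 there. On the probes of Col1a1, Col1a2 and Col3a1, with mean log2 intensity of 11.4 to 12.0, the processed signals gave 1.58, 1.62 and 1.51, close to the values above. The probes of Col5a2 and Col18a1 had mean log2 intensity of 9.42 and 8.89. Their changes in tumours of untreated rats reached 2.31 and 2.66 over the alternatives tried, against 1.43 and 1.89 in the main analysis.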

How the data were processed

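The deposited scanner files hold 2-colour spot intensity values and a log10 ratio of Cy5 over Cy3, with Agilent Feature Extraction 9.1.3.1 given in the file headers. The submitters' processing notes also name Partek without saying what it did. The deposited log10 ratio was used only as a check: recomputing it gave the same value (within 0.01) at 75.1% to 98.9% of an array's spots, and the others held 0. Mean intensity signals were corrected with normexp (offset 50) and normalized by loess within each array in R 4.3.3 with limma 3.58.1, and turned to log2 of Cy3 over Cy5. Control spots had weight 0 and non-uniform spots were left out. The brightest probe stood for a gene. limma fitted 1 mean per group to 20 samples of rat and tissue (16 residual degrees of freedom, 400 values missing), two-sided, with Benjamini-Hochberg adjustment. The procedure was tested on simulated data.

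The rat numbers are animal numbers and so pair the tissues. Deviations from the group means correlated across features between both tissues of a rat at 0.0769 to 0.568. Both tissues of each rat also shared a slide, so rat and slide cannot be told apart in these values. Rat as a block was an alternative. In each class (fibrillar, type IV, others), values in every rat were planned for the 3 members of smallest p in each comparison and for Col1a1, Col1a2, Col3a1, Col4a2 and Col17a1, and the text gives those the comparisons turn on. Members, lists and tests were chosen with earlier results of these data known.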

Additional observations from a re-analysis of the deposited data

Results flagged for a closer look

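Among 16 named collagens in 4 groups of 5 rats, 2 of 64 sets of values held 1 rat far from the rest, by Dixon's criterion for a single value, where chance alone gives about 1 in 20. Col4a5 stood at -0.86 in the untreated normal colon of rat 8, with the next lowest at -0.23, a gap of 0.735 of the whole range. Col22a1 stood at 0.51 in the normal colon of rat 6 after DSS, with the next highest at 0.09, a gap of 0.775 of the range. Col18a1 differed between tissues in its DSS effect by the interaction test (-1.73 ± 0.35, limma adjusted p = 0.0113, 4 groups of 5 rats).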

How the results depend on the processing

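No collagen call changed direction under any alternative tried. The count of 9 collagens called in tumours of untreated rats became 4 with median centring in place of loess and 3 within slide set 2. It was 6 to 10 when 1 rat was left out (6 without rat 8), new calls included. The share of all features called fell as well, from 18.0% to 3.42% with median centring, 9.2% within slide set 2 and 9.88% without rat 8. The count of 4 in tumours of DSS rats became 0 within slide set 2 and 2 to 4 with 1 rat left out (2 without rat 5). Without rat 1 the count was 3, of which 2 were among the main 4 and Col1a2 was new. Here the share of all features fell from 7.53% to 0.414% within slide set 2 and 4.08% without rat 5. For DSS in normal colon the count of 2 became 5 with no background correction, 7 with the deposited processed signals, 1 with median centring, 5 within slide set 1, 0 within slide set 2 and 6 with array weights, and 2 to 4 with 1 rat left out (4 without rat 9 or without rat 10). The share of all features called moved too, from 7.19% to 9.29% with no background correction, 10.3% with processed signals, 1.37% with median centring and 21.0% with array weights, where 6 of 25 collagens is near that share. It was 11.8% within slide set 1, 0.00745% within slide set 2, 5.82% without rat 9 and 8.29% without rat 10. For the interaction the count of 1 became 2 with no background correction, 3 with processed signals, 0 with median centring, 2 with scan day as a block, 2 with slide as a random block, 0 within slide set 2 and 2 with array weights, and 1 to 2 with 1 rat left out (2 without rat 6 or without rat 7). Of all features, 2.50% were called in the main analysis, 3.93% with no background correction and 4.65% with processed signals. The share was 5.19% with scan day, 4.54% with slide and 4.96% with array weights. With median centring it was 0.708%, and within slide set 2 it was 0.0112%. No collagen was called between tumours of DSS and untreated rats under any alternative, where at most 0.0335% of all features were called (scan day as a block). With rat as a fixed block the counts were 9, 5 and 1 for tumours of untreated rats, tumours of DSS rats and the interaction. The shares of all features were 24.8%, 12.3% and 5.65%. With rat as a random block the counts were 10 and 6 for tumours of untreated and of DSS rats (24.8% and 12.8% of all features). They were 2 for DSS in normal colon (6.81%) and 2 for the interaction (6.25%). Beside Col1a1 and Col1a2 in tumours of DSS rats, Col9a3 in tumours of untreated rats and Col7a1 in the interaction, the replicate block changed no other collagen call. Median centring moved the median of all features in tumours of DSS rats to 0.25, against 0.50 for the collagens. Signal over background limits what the dim probes can show. The cause of these changes was not tested.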

Other observations

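The array also holds 20 probes whose description, but not whose symbol, names a collagen chain, chosen after the data were seen. Of these, 13 were bright enough to test and 1 was called in any comparison: a probe described as a fragment of the type V chain Col5a2 was higher in tumours of untreated rats by 1.18 (limma adjusted p = 0.0282), where the 2 Col5a2 probes gave 1.43 and 1.29. Probes described as Col4a3 and Col4a6, the partners of Col4a4 and Col4a5, differed there by -0.02 and 0.02 (adjusted p = 0.906 and 0.952). The Col4a3 probe was above background on only 6 arrays, against 23 for the Col4a6 probe, so it carries little information on a difference. Levels in normal colon of rat 1 and rat 5, both given DSS, had a correlation of 0.969 across features, beside that of second arrays of 1 sample (0.812 to 0.967). The value of 0.812 was from the normal colon of rat 2, whose first array had raised signal. No other pair of rats was compared in this way, so whether 0.969 is unusual cannot be said.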
